A study of Mus musculus with 16 samples.

Results

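The genes described here encode the contractile filaments of the muscle fibre and the structures that anchor them: actins, troponins, tropomyosins, nebulin, myosin light chains, myosin binding proteins, titin, M-band proteins and Z-disc proteins. They were listed by symbol, with earlier results of these data known, and are 34 of the 23220 gene symbols in the 4 deposited tables, with all 34 present in every table. By the structure they belong to, 12 are thin filament genes, 9 thick filament genes, 3 M-band genes and 10 genes of the Z-disc and the cytoskeleton around it. RNA was extracted from myofibers (the long contractile cells with many nuclei). The muscle was the extensor digitorum longus (EDL), a fast muscle of the lower hind limb. The 16 bulk RNA-seq libraries form 4 groups of 4 from male C57BL/6 mice: old runners (22 months, 5 weeks of voluntary wheel running), old controls (22 months, labelled control), young runners (4 months, 5 weeks of voluntary wheel running) and young controls (4 months, labelled control). The labels give no housing of the controls and no running distance. Separate mice per library are not stated, so p-values rest on the spread from library to library, which may be partly technical.

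The sarcomere is the repeating unit of the myofibril: thin filaments of actin, tropomyosin and troponin are anchored in the Z-disc, and thick filaments of myosin are cross-linked in the middle by the M-band. Calcium binds troponin C, troponin I and troponin T pass this on to tropomyosin, and myosin heads then reach actin. Many of these proteins exist as paralogs from separate genes, with one form in fast fibres and another in slow fibres or in the heart, and the EDL of the mouse is built almost entirely of fast fibres.

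Libraries held 30.7 to 67.4 M assigned reads (M, 1e6 reads), with a median of 46.9 M, and 12692 to 17563 genes had at least 1 read. The 34 genes took between 12.6% and 19.2% of the reads of a library. All 10 skeletal fibre markers were detected in every group, with a summed level of 76692 to 128624 CPM (counts scaled to 1e6 reads) per library. Levels of single genes are given as normalised reads, which are reads recovered from the deposited values and divided by 1 size factor per library over all 16 libraries. Levels of different genes are compared only as normalised reads per kilobase (kb) of exon. Differences are given in the deposited log2 units, in which genes with few reads are compressed. Control library Yc4 stood apart for several members and is named where a value rests on it.

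Right upstream of the start, 5 of the 24 members with a RefSeq promoter sequence carry a CArG box, the binding motif of serum response factor, an activator of muscle actin genes. The box was searched by its name pattern on both strands in the 250 bases before the start. It was found in 20.8% of these member windows and in 1.47% of all 32851 promoter windows in the table (482 windows). Each member counts once, by the listed start nearest its GENCODE gene start, whereas the 32851 windows hold every listed start. The windows of Actc1, Myl3 and Myom1 lie inside the GENCODE gene, which begins further upstream (Myl3 at 110741861, Myom1 at 71002633). The 5 windows (RefSeq, GRCm38.p6) are shown because they run from the most abundant member to one that is nearly silent in this muscle, and the capitals mark the CArG box:
Acta1 (chr8:123894776-123895025, minus strand): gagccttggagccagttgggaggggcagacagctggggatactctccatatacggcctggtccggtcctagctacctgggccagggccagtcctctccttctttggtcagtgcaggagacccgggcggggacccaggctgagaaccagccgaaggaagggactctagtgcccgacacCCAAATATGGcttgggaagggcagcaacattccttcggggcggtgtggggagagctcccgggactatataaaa
Actc1 (chr2:114052876-114053125, minus strand): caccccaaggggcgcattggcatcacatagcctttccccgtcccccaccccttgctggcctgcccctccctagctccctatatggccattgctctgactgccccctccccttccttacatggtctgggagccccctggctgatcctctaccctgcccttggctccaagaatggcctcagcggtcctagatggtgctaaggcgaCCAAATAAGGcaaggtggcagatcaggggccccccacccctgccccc
Myl3 (chr9:110763428-110763677, plus strand): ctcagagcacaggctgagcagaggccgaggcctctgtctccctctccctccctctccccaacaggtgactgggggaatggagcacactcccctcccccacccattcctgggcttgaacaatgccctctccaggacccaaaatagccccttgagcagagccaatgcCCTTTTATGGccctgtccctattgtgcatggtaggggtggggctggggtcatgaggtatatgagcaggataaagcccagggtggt
Myom1 (chr17:71019307-71019556, plus strand): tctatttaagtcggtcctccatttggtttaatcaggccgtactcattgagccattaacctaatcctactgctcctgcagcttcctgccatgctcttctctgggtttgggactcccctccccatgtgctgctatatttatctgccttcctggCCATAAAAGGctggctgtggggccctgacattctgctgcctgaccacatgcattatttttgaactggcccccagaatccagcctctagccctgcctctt
Ldb3 (chr14:34588682-34588931, minus strand): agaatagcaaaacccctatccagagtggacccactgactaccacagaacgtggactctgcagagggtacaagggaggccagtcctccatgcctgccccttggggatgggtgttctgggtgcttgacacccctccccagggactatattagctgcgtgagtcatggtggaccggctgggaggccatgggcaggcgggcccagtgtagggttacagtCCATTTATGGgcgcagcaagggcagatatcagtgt
The gap between the box and the start was 63 bases in Acta1, 37 in Actc1, 75 in Myl3, 89 in Myom1 and 25 in Ldb3. A match is a description of the letters only. The MEF2 site, the motif of another muscle factor family, was found in 3 of the 24 member windows (Ttn, Myom3 and Myoz2; 12.5%) and in 2.92% of all windows. The E-box CANNTG, bound by the MyoD family, was found in 21 of the 24 (87.5%) and in 66.2% of all windows. Acta1 and Actc1 share the box, with median levels of 1221438 and 1936 normalised reads per kb. Members with no entry in the promoter table were Tnni2, Tnnt3, Neb, Mylk2, Myom2, Actn3, Tcap, Myoz1, Myoz3 and Myot.

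The level of the members spans from the top of the transcriptome to the detection limit. Acta1, skeletal muscle alpha-actin and the backbone of the thin filament, had a median of 1221438 normalised reads per kb over the 16 libraries and ranked 1st of the 22205 genes with an exon length. Tnnt3, fast troponin T, ranked 2nd with a median of 678813. Mylpf, the fast regulatory light chain, followed with 325963 and Myl1, the fast essential light chain, with 298447. Tcap, telethonin, which caps the titin end in the Z-disc, had a median of 198188 and Tnni2, fast troponin I, 186467. These 6 and Tpm2 (140438), Actn3 (124241), Tpm1 (81551), Myoz1 (74517), Mybpc2 (61351), Des (59615), Myot (58199) and Mybpc1 (33472) lay among the 57 most abundant genes per kb.

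**Figure D1:**
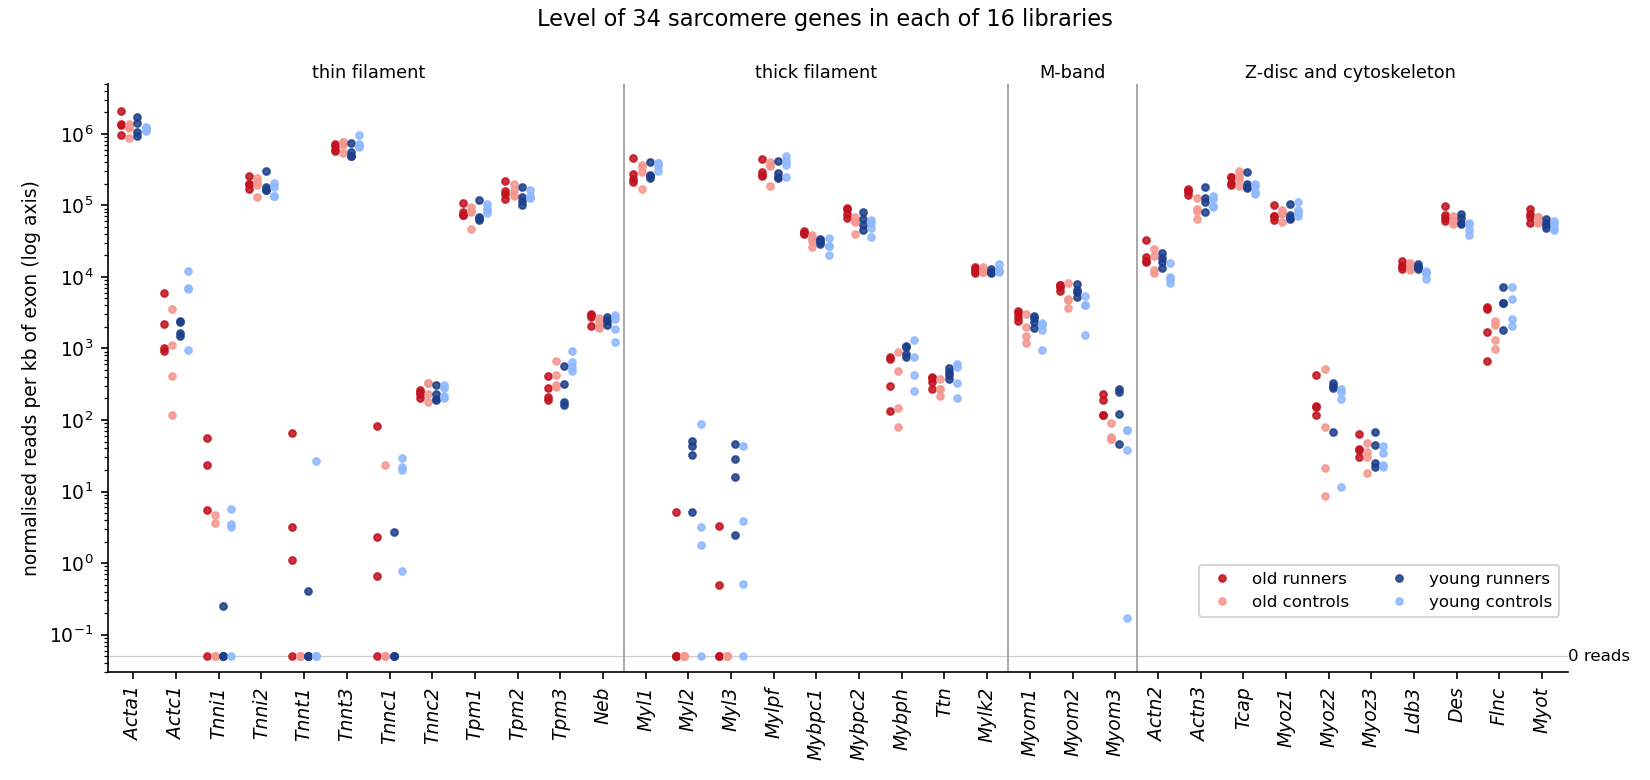
Normalised reads per kb of exon (log axis) of the 34 members in each of the 16 libraries, 1 point a library, coloured by group and ordered by structure; points on the lowest line have 0 reads. Acta1 and Tnnt3 lead, and the slow troponins and slow light chains sit at or below 89.3.

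The slow forms were close to or at 0. Tnni1, slow troponin I, had no read in 7 of 16 libraries and at most 55.4 normalised reads per kb. Tnnt1, slow troponin T, had none in 11 libraries and at most 66.2, and Tnnc1, troponin C of slow and cardiac muscle, none in 7 and at most 83.7. Myl2 and Myl3, the light chains of slow fibres and the ventricle, had none in 8 and 7 libraries and at most 89.3 and 46.2. In old controls no read of Tnnt1, Myl2 or Myl3 was found among 172.7 M reads, which allows a level of up to 0.0174 CPM for each (3 reads over the group, counting error only). The levels of these 5 genes overlap and give no order beyond their spread.

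One fast form did not follow the others. Tnnc2, fast troponin C, had 205 to 264 normalised reads per kb in old runners, 178 to 333 in old controls, 188 to 306 in young runners and 205 to 307 in young controls. Its median of 232 over all libraries stands against 186467 for Tnni2 and 678813 for Tnnt3, the subunits it pairs with in the same complex. In the GENCODE M21 annotation 74.0% of the exon bases of Tnnc2 (chr2:164777161-164779967, minus strand) are also exon bases of Ube2c, a ubiquitin-conjugating enzyme of dividing cells that lies on the other strand. The libraries keep no strand, and how the authors counted reads in shared bases is not given in the sources used here, so the level of Tnnc2 is uncertain and the role of the overlap was not tested. Ube2c itself had 31 to 1779 reads per library. Mybph, a myosin binding protein related to Mybpc1 and Mybpc2, shares 49.9% of its exon bases with Adora1, and its level is uncertain for the same reason; each other member shares 5.9% or less.

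Reads can also be split between near-identical paralogs. Of the transcripts of the 11 paralog pairs compared here, only Actn2 and Actn3 share any stretch of 50 bases, and these are 2 of 3802 such stretches of Actn2. Reads of at least 50 bases from cardiac and skeletal actin can thus be told apart wherever they match without error.

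The most even member was Mylk2, the kinase of the fast regulatory light chain, whose highest library was 1.36 times its lowest. Ldb3 (1.8 times), Tnnc2 (1.87), Myoz1 (1.92) and Tnnt3 (2.01) followed. Actc1, cardiac alpha-actin, spanned 103-fold between its lowest and highest library, Myoz2, calsarcin of slow fibres, 58.6-fold, Mybph 16.4-fold and Flnc, filamin C, 10.9-fold. Myom3, the myomesin form of slow and intermediate fibres, spanned more, through 1 library (Yc4) with a single read.

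Running in old mice gave no called difference among the members. With limma (deposited values, Benjamini-Hochberg over all genes tested, threshold 0.05), 0 of the 29 members tested were called, against 12 of 9379 genes tested (0.128%). The other 5 members, Tnni1, Tnnt1, Tnnc1, Myl2 and Myl3, had too few reads to be tested. At an unadjusted p under 0.05 there were 6 members, all higher in old runners (20.7%, where 17.4% of all genes tested pass in either direction, 10.3% higher and 7.04% lower). voom on the recovered reads called 0 members and put 6 under an unadjusted 0.05 (all genes 1694 of 9377). The 6 became 2 without O4ex (all genes 1070 of 9227), 3 without O2ex (1196 of 9242) and 3 without Oc3 (1302 of 9207). With the exon length trend removed they were 4, with 3 of them higher (1381 of 9199). They were 8 without O1ex (1560 of 9267) and 8, with 7 of them higher, without Oc1 (1972 of 9235). The 6 were the 3 M-band genes, Actn3, Mybpc1 and Mybpc2. The median difference of the tested members was 0.24, against 0.03 for all genes tested.

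The 3 M-band genes lay above the controls in mean. Myom3 had 1408, 699.7, 1157 and 721 normalised reads in old runners (O1ex to O4ex), against 323, 351, 325 and 547 in old controls (Oc1 to Oc4). The groups do not overlap, and the difference was 0.87 ± 0.20 (log2, SE; limma adjusted p = 0.103), or 2.58 times by mean normalised reads. Myom1, myomesin-1, which cross-links thick filaments, had 25101, 33116, 29087 and 34404 normalised reads in old runners, against 32143, 12419, 15451 and 20690.4 in old controls. Library Oc1 lies within the runners, and the other 3 controls lie below all of them (0.67 ± 0.25, adjusted p = 0.213). Myom2, M-protein of fast fibres, had 56751, 69283, 67819.8 and 63763 in old runners, against 73026, 43757, 41919.7 and 32836 in old controls (0.49 ± 0.22, adjusted p = 0.273). Oc1 lies above all runners for Myom2, and the other 3 controls lie below all of them. Without Oc1, Myom1 (0.92), Myom2 (0.71) and Actn3 (0.99) passed the threshold, among 295 of 9235 genes tested. With library weights Actn3, Myom1, Myom2 and Myom3 passed, a setting that called 688 of all genes tested.

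Actn3, the fast alpha-actinin that cross-links actin in the Z-disc, had 452973, 453487, 408728 and 488505 normalised reads in old runners, against 372403, 244552, 257908 and 186485 in old controls. The 2 groups do not overlap, and the means were 450923 ± 32679 in old runners and 265337 ± 77820.4 in old controls (SD, n = 4 each; 0.81 ± 0.21, limma adjusted p = 0.125). Mybpc1, the slow-type myosin binding protein C that fast fibres also use, was the third member without overlap, with 181634 to 197915 in old runners and 117022 to 172697 in old controls (0.36 ± 0.16, adjusted p = 0.269). These are 3 of 29 members without overlap (10.3%), against 10.2% of all genes tested in either direction. All 3 were higher in old runners, as were 4.86% of all genes tested. Mybpc2, the fast form, averaged 291219 ± 40324 in old runners and 205281 ± 45569.7 in old controls, with overlap (0.53 ± 0.20, adjusted p = 0.214).

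For other abundant members the intervals in old runners against old controls spanned 0. Acta1 averaged 2195971 ± 706698 normalised reads in old runners and 1826676 ± 327943 in old controls (0.24, 95% interval -0.37 to 0.85). For Tnnt3 the difference was -0.09 (-0.54 to 0.36), for Myl1 0.01 (-0.67 to 0.69), for Mylpf -0.02 and for Tpm2, the beta-tropomyosin, -0.02. Mylk2 had the narrowest interval, -0.26 to 0.28 around 0.01. The widest were those of Actc1 (-0.49 to 2.67) and Myoz2 (-0.45 to 1.89).

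Exon length moved with this comparison. Over 9199 genes the difference between old runners and old controls correlated with exon length with a Spearman rho of 0.339, and over the 29 members with 0.437 (a description across genes, which share the libraries). The M-band genes are long, with 6038 to 10459 exon bases. Within libraries, longer genes were relatively low in Oc2 and Oc3 (rho -0.386 and -0.347 over 8853 genes) and high in O2ex, O3ex and O4ex (0.303, 0.398 and 0.197). O1ex had -0.148, Oc1 0.04 and Oc4 -0.036. With the length trend removed, the differences were 0.76 for Myom3, 0.49 for Myom1, 0.32 for Myom2 and 0.84 for Actn3 (4 members under an unadjusted 0.05). The part of exon length in these differences was not tested further.

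**Figure D2:**
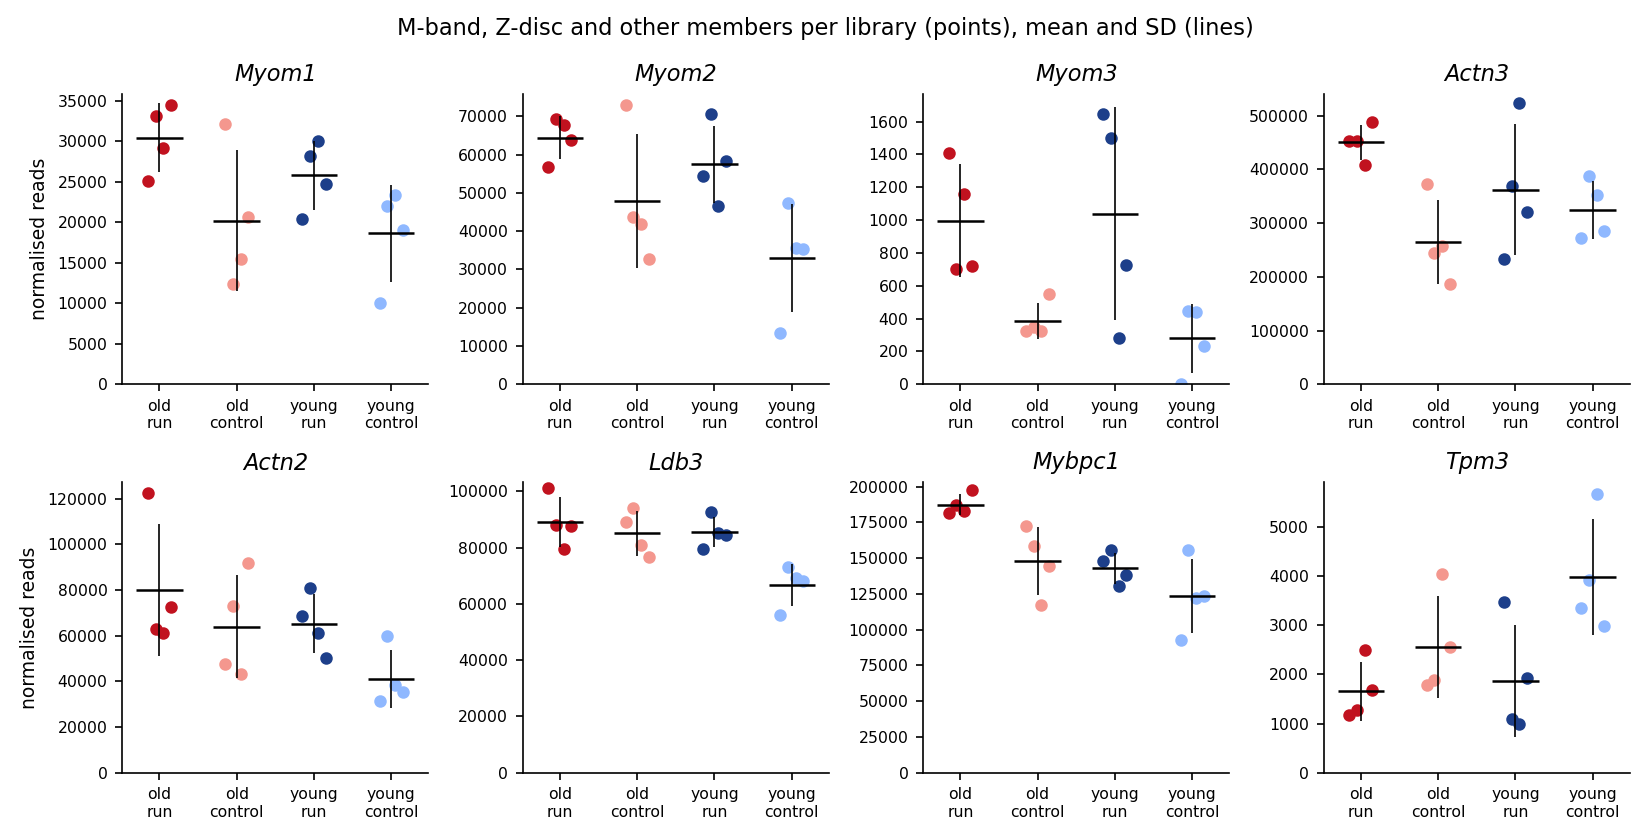
Normalised reads of 8 members per library (points) with group mean and SD (lines), axes from 0. Actn3, Mybpc1 and Myom3 do not overlap between old runners and old controls, Ldb3 does not overlap between young runners and young controls or between old and young controls, and Oc1 is the high old control for Myom1 and Myom2.

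Running in young mice likewise gave no called member. limma called 0 of the 30 members tested (Myl2 had enough reads here), against 81 of 10624 genes tested (0.762%), and voom called 0. At an unadjusted p under 0.05 there were 5 members (16.7%, against 17.4% of all genes tested), and 6 with voom (all genes 1687 of 10622). The count was 2 without Y2ex (all genes 1227 of 10435) and 9 without Y3ex (1934 of 10494). Of the 5, Myom2, Myom3, Actn2 and Ldb3 were higher in young runners and Tpm3 lower, where 8.85% of all genes tested pass higher and 8.51% lower. The member without overlap was Ldb3 (1 of 30, against 11.5% of all genes tested, 5.71% in its direction). The median difference of the tested members was 0.18, against 0.01 for all genes tested.

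Myom3 had 1647, 1503, 279 and 725 normalised reads in young runners (Y1ex to Y4ex), against 1.03, 444, 439 and 232 in young controls (Yc4, Yc5, Yc7 and Yc8). Y3ex lies within the controls and Yc4 is near 0 (1.54 ± 0.59, limma adjusted p = 0.219). Myom2 had 54437, 70585, 46504 and 58466 in young runners, against 13489.8, 47305, 35563 and 35313 in young controls (0.92 ± 0.33, adjusted p = 0.204). All 3 M-band genes were lowest in 1 library, Yc4, where Myom1 had 10052, against 19041 to 23373 in the other young controls. Exon length moved with this comparison too, with a rho of 0.122 over 10403 genes and 0.339 over the 30 members. Longer genes were relatively low in Yc4 (-0.356), Y3ex (-0.199) and Yc8 (-0.096), and high in Y4ex (0.421), Y2ex (0.372), Yc5 (0.36), Yc7 (0.22) and Y1ex (0.147). The part of exon length was not tested. The median difference of the 3 M-band genes was 0.67 in old runners against old controls, 0.92 in young runners against young controls, 0.52 in old against young controls and 0.18 in old against young runners, and these comparisons share libraries. Myom1 took the other sign in 3 of 16 alternatives for old against young controls, and Myom3 in 3 of 17 for old against young runners.

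Ldb3, ZASP or cypher, a Z-disc adaptor that binds alpha-actinin, had 79691, 92838, 85179 and 84531 normalised reads in young runners, against 56203, 73218, 69382 and 68199 in young controls. Every runner library is above every control (0.36 ± 0.15, adjusted p = 0.238). Actn2, the alpha-actinin of slow fibres, heart and also fast fibres, averaged 65338 ± 12972 in young runners and 41232 ± 12684 in young controls, with overlap through Yc5 (0.68 ± 0.22, adjusted p = 0.171). Actn3 averaged 362006 ± 122017 in young runners and 324409.6 ± 54502 in young controls (0.11, 95% interval -0.45 to 0.67). The test of whether the running difference of Actn3 depends on age gave 0.70 ± 0.33 (adjusted p = 0.788).

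Tpm3, the slow alpha-tropomyosin gene, which also makes a cytoskeletal form, was the member with the smallest p among those lower in young runners. It had 3468, 1092, 997 and 1930.3 normalised reads in young runners, against 3359, 3922, 5667 and 2988 in young controls. Y1ex lies among the controls and the other 3 runners lie below all controls (-1.13 ± 0.34, limma adjusted p = 0.14). Actc1 had 2446, 3802, 3926 and 2673 in young runners, against 1524, 11267, 19497 and 10859 in young controls. The 4 runners are close together, and the controls hold both the lowest and the 3 highest values (-1.28 ± 0.61, adjusted p = 0.309). Without Yc4, Actc1 passed the threshold, among 181 of 10475 genes tested. With library weights Actc1, Myom2, Myom3 and Tpm3 passed, a setting that called 1394 of all genes tested.

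Markers of some other cell types had summed levels that did not overlap between young runners and young controls. In old mice these sums overlapped, and no test was run. That of the 9 fibro-adipogenic progenitor markers was 41.7 to 91.5 CPM in old runners and 5.72 to 46.7 in old controls, and 80.4 to 263 CPM in young runners and 1.33 to 14.8 in young controls. All 9 were measured, and Pdgfra, the receptor that defines these cells, had 0 reads in all 8 old libraries. The 8 endothelial markers summed to 22 to 90.2 CPM in old runners and 9.07 to 87.7 in old controls, and to 21.8 to 103 CPM in young runners and 6.66 to 21 in young controls. The 8 smooth muscle and pericyte markers other than Des, which fibres share, summed to 13.7 to 76.5 CPM in old runners and 12.1 to 42.5 in old controls, and to 16.9 to 68.4 CPM in young runners and 2.71 to 14.1 in young controls. Their part in the member differences was not tested. In bulk RNA, fewer cells of a type and less RNA per cell cannot be told apart.

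**Figure D3:**
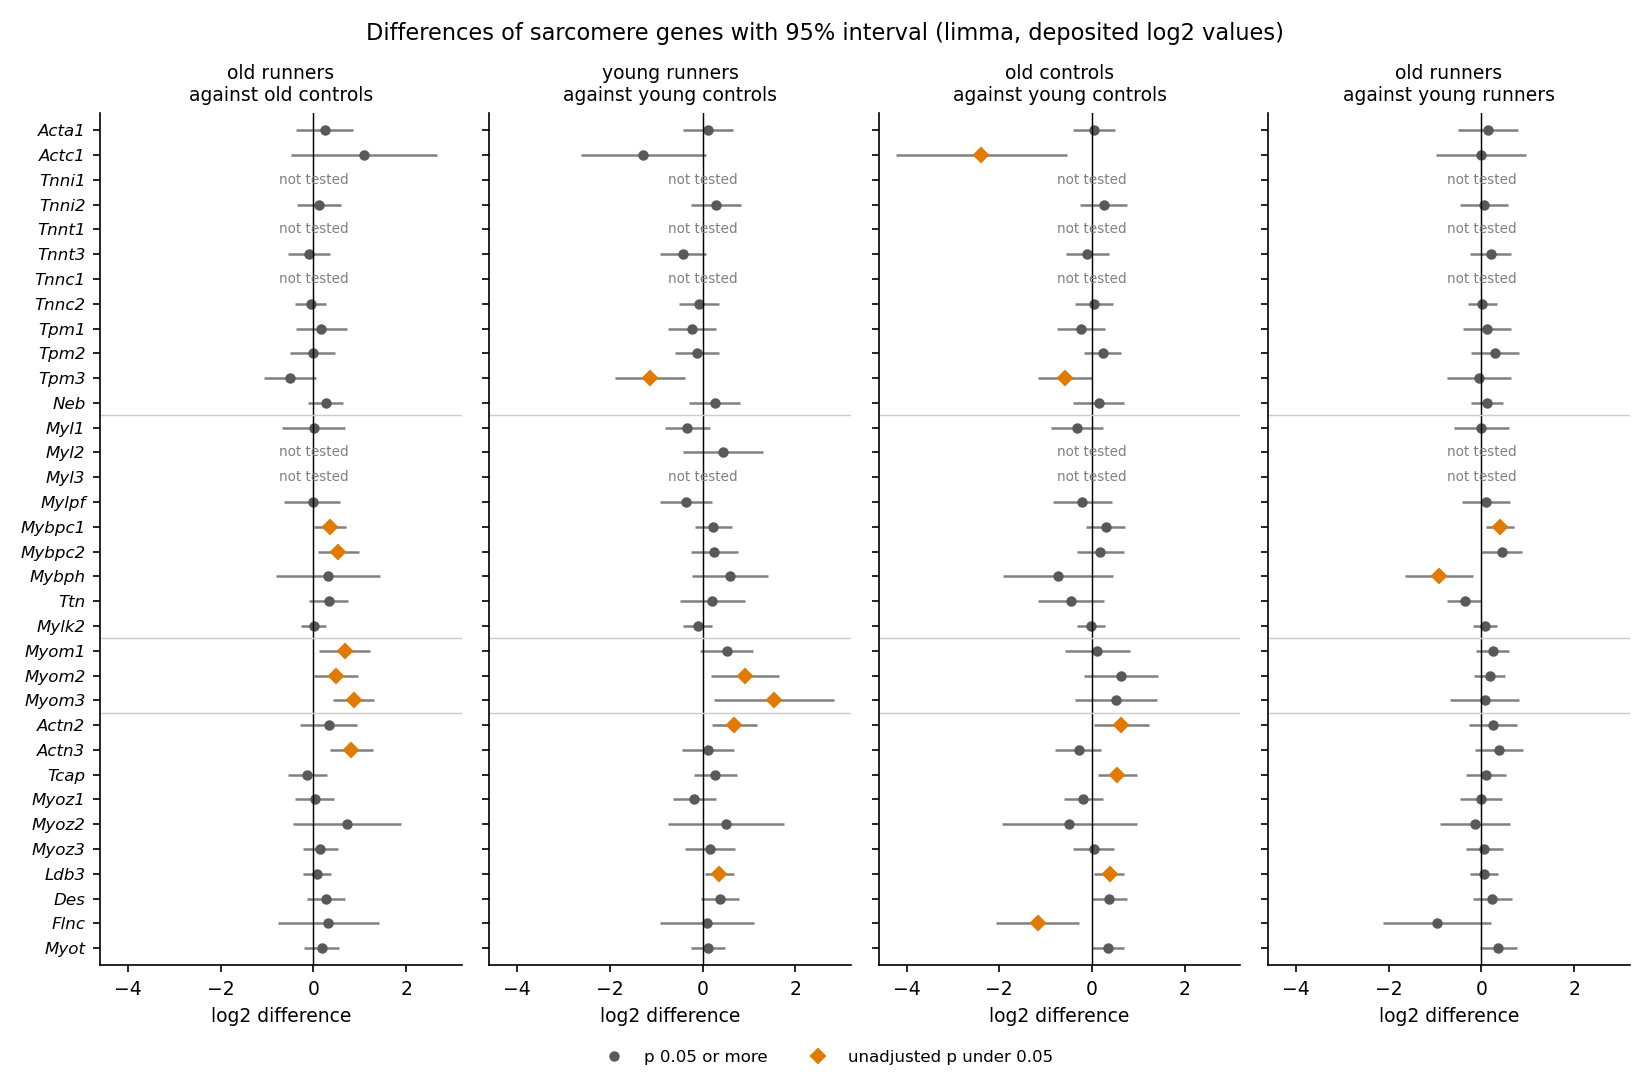
Difference of each tested member on the deposited log2 scale in the 4 comparisons (points, limma) with 95% intervals (lines); diamonds have an unadjusted p under 0.05, none passes after adjustment, and members with too few reads are marked. M-band points lie right of 0 in all panels, where alternatives put Myom1 (old against young controls) and Myom3 (old against young runners) left of it, and Actc1 has the widest interval between old and young controls.

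Age without running was compared in the controls. limma called 0 of the 29 members tested, against 11 of 9831 genes tested (0.112%), and voom called 0. An unadjusted p under 0.05 was found for 6 members (20.7%, against 11.2% of all genes tested) and with voom for 8 (all genes 1053 of 9829). The count was 3 without Oc2 (all genes 854 of 9704), Oc4 (1113 of 9690) or Yc7 (670 of 9607), and 8 without Yc5 (876 of 9633). Actn2, Tcap and Ldb3 were higher in old controls, and Actc1, Tpm3 and Flnc lower, where 5.43% of all genes tested pass higher and 5.75% lower. The member without overlap was again Ldb3 (1 of 29, against 7% of all genes tested, 4.16% in its direction). The median difference of the tested members was 0.04, against -0.01 for all genes tested.

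Actc1 had 674, 5804, 1819.8 and 188 normalised reads in old controls, against 1524, 11267, 19497 and 10859 in young controls. Yc4 lies inside the range of the old controls, and the other 3 young controls lie above it (-2.39 ± 0.83, limma adjusted p = 0.312). With library weights Actc1 passed, among 461 genes in all. Flnc, which links the Z-disc to the membrane and is known to respond to mechanical load, had 20254, 9108, 12284 and 22769.9 in old controls, against 24011, 68514, 46881 and 19217 in young controls (-1.17 ± 0.40, adjusted p = 0.306). Only Yc8 falls among the old controls. Ldb3 had 88954, 94153, 80818 and 76508 in old controls, against 56203, 73218, 69382 and 68199 in young controls (0.38 ± 0.15, adjusted p = 0.37). The 4 young controls hold the lowest values of Ldb3 among all 16 libraries.

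Tcap averaged 234570.1 ± 47071 normalised reads in old controls and 162782 ± 23561 in young controls (0.54 ± 0.19, adjusted p = 0.323), with overlap. Actn2 averaged 64037 ± 22657 in old controls and 41232 ± 12684 in young controls (0.63 ± 0.27, adjusted p = 0.413). Ttn, the giant spring from Z-disc to M-band, had 25006 to 43357 in old controls and 23429 to 71695 in young controls (-0.45, 95% interval -1.17 to 0.26), and with the exon length trend removed the difference was 0.18. In this pair of groups longer genes leaned the other way (rho of difference with exon length -0.223 over 9632 genes). A marker sum also moved with age. The 5 tenocyte markers summed to 25.2 to 41 CPM in old controls and 10.6 to 24.4 in young controls, with Tnmd and Comp at 0 in each group. Their part in the age differences was not tested.

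The last comparison set runners of the 2 ages against each other. limma called 0 of the 29 tested, against 2 of 9387 genes tested (0.0213%), and voom called 0. An unadjusted p under 0.05 was found for 2 members (6.9%, against 4.91% of all genes tested, 2.41% higher and 2.5% lower). With voom it was found for 5 (all genes 444 of 9385). The count was 5 without O3ex (all genes 435 of 9211) or without Y3ex (838 of 9282). Mybpc1 had 181634, 186918, 183205 and 197915 normalised reads in old runners, against 147683, 155373, 130511 and 138269 in young runners. Every old runner is above every young runner (0.40 ± 0.13, adjusted p = 0.844), and it is the 1 member of 29 without overlap, against 3.38% of all genes tested, 1.83% in its direction. Mybph had 311 to 1790.2 in old runners and 1756 to 2553 in young runners (-0.92 ± 0.33, adjusted p = 0.96). The median difference of the tested members was 0.10, against 0.00 for all genes tested. The 6 satellite cell markers summed to 115 to 148 CPM in old runners and 153 to 190.1 in young runners, and their part was not tested.

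The running difference itself was compared between the ages over all 4 groups. limma called 0 of 29 members and 0 of 9354 genes tested (0%), with 585 genes (6.25%) at an unadjusted p under 0.05. voom also called 0 members and put 2 under an unadjusted 0.05 (all genes 590 of 9354). The 2 members under an unadjusted 0.05 were Actc1, with an old minus young difference of 2.37 ± 1.04 (adjusted p = 0.788), and Actn3 with 0.70. The count was 0 without Oc4 (all genes 581 of 9207), O1ex (631 of 9248) or O2ex (447 of 9222). It was also 0 without Yc5 (579 of 9337), Yc7 (440 of 9336) or Y4ex (585 of 9317), and 1 or 2 without any other library. For Actc1 the running difference was 1.09 in old mice and -1.28 in young mice, and neither passed.

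Fast and slow paralogs were set against each other within each library, as the log2 ratio of reads per kb, which does not depend on the size factor. Mybpc1 over Mybpc2 was the one pair near balance. Its ratio averaged -0.95 ± 0.19 in old runners, -0.78 ± 0.36 in old controls, -0.92 ± 0.41 in young runners and -0.89 ± 0.11 in young controls (log2, SD, n = 4 each). Mybpc1 thus made up 34.1% to 36.9% of the pair in the group means, and the 4 groups overlap. Both genes had a higher mean in old runners than in old controls, and the ratio differed by -0.17 (2-sided exact permutation test p = 0.543).

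Actn2 over Actn3 was the next closest to balance. The ratio averaged -2.94 ± 0.45 in old runners, -2.46 ± 0.87 in old controls, -2.82 ± 0.58 in young runners and -3.39 ± 0.22 in young controls. Actn2 made up 11.8% of the pair in old runners, 16.6% in old controls, 12.9% in young runners and 8.75% in young controls. The difference was -0.48 in old runners against old controls (exact p = 0.343), 0.58 in young runners against young controls (exact p = 0.114) and 0.93 in old against young controls (exact p = 0.0571). None of these passed after adjustment over the 44 tests, a threshold that groups of 4 can hardly reach.

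The other pairs were one-sided in the group means. Tnnc1 was 0.345% to 7.02% of its pair with Tnnc2 in the group means, and 26.5% in library O1ex. This pair is uncertain, because the level of Tnnc2 is uncertain (exon bases shared with Ube2c) and Tnnc1 had 3 or fewer reads in 11 libraries. Myom3 was 1.02% to 2.48% of its pair with Myom2 in the group means, Tpm3 0.341% to 0.73% of its pair with Tpm1, and Myoz2 0.231% to 0.323% of its pair with Myoz1, the calsarcin of fast fibres. Actc1 made up 0.156% of its pair with Acta1 in old runners, 0.0991% in old controls, 0.155% in young runners and 0.557% in young controls. For Tpm3 over Tpm1 the ratio differed by -0.78 in old runners against old controls and by -1.01 in young runners against young controls (exact p = 0.171 for each). Gene-level counts do not separate the muscle from the cytoskeletal forms of Tpm1 and Tpm3.

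**Figure D4:**
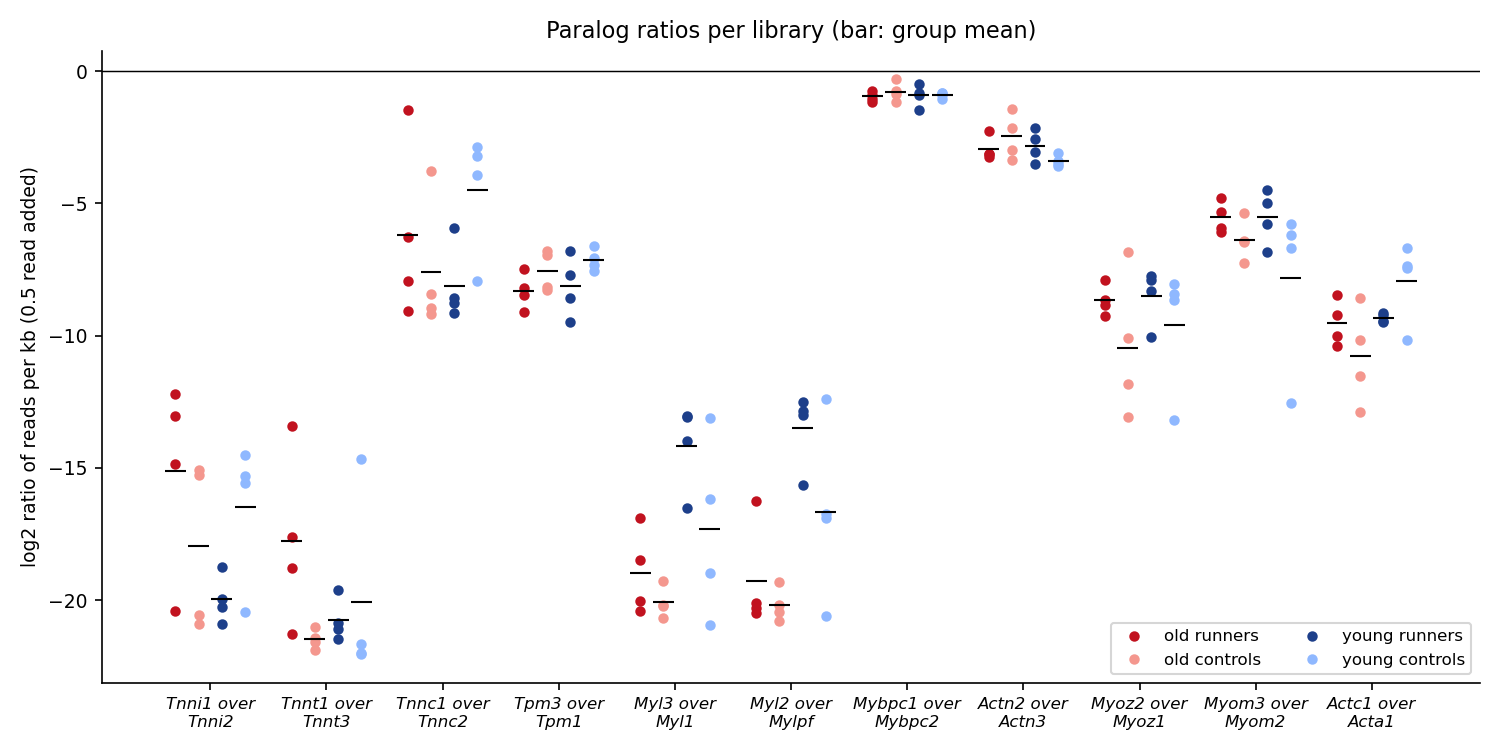
Log2 ratio of reads per kb of each paralog pair (first named over second) in every library, by group, with the group mean as a bar and 0.5 read added to both genes. Mybpc1 over Mybpc2 lies closest to 0 in all groups. Pairs with slow troponins or slow light chains scatter widely, as do Myom3 over Myom2 in young controls (SD 3.18) and Myoz2 over Myoz1 in old controls (SD 2.71).

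Of the 44 ratio tests, 2 had an exact p under 0.05, both at 0.0286, the smallest p that 70 assignments of 4 against 4 can give. They were Myl3 over Myl1 (-4.81) and Myl2 over Mylpf (-5.79) in old runners against young runners. After adjustment both exact permutation tests had p = 0.397, and 0 of 44 passed. With this smallest p, a ratio could pass only if many of the 44 tests reached it. The adjusted result therefore cannot decide whether ratios differ between groups. The 2 light chain ratios rest on slow genes with 3 or fewer reads in 9 (Myl3) and 8 (Myl2) of the 16 libraries. Their size thus depends on the 0.5 read added.

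The slow light chains and the slow troponins peaked in different libraries, but Yc8 was high for Myl2, Myl3 and also Tnnt1 (74 reads). Myl2 had 6, 0, 0 and 0 reads in old runners, 0 in each of the old controls, 8, 93, 87 and 66 reads in young runners, and 0, 4, 9 and 217 in young controls. Myl3 had 4, 0, 0 and 1 reads in old runners, 0 in each old control, 4, 36, 84 and 60 in young runners, and 1, 9, 0 and 111 in young controls. Thus Yc8 and 3 of the young runners (Y2ex, Y3ex and Y4ex) held most reads of both light chains. In normalised reads of Myl2 the lowest young runner (10.2 in Y1ex) was just above the highest old library (10.1 in O1ex). Myl3 overlapped, with 5.08 in Y1ex and 6.7 in O1ex, though its ratio to Myl1 did not. Myl1 had 548341 normalised reads in Y1ex and 944071 in O1ex.

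Tnni1 had 119, 122, 25 and 0 reads in old runners and 0, 0, 14 and 12 in old controls. Tnnt1 had 87, 10, 3 and 0 in old runners and 0 in each old control, and Tnnc1 had 52, 1, 3 and 0 in old runners and 0, 28, 0 and 0 in old controls. In young runners the 3 slow troponins together had 5 reads in 4 libraries. In young controls Tnni1 had 0, 13, 29 and 16 reads, Tnnt1 0, 0, 0 and 74, and Tnnc1 20, 26, 44 and 1. In normalised reads, O1ex was the one library in which all 3 slow troponins were at their highest. It had 6 and 4 reads of the slow light chains. The 10 measured slow fibre markers, which include members, summed to 81.7 to 419 CPM in old runners, 21.9 to 74.8 in old controls, 68.2 to 486 in young runners and 11.5 to 137 in young controls.

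**Figure D5:**
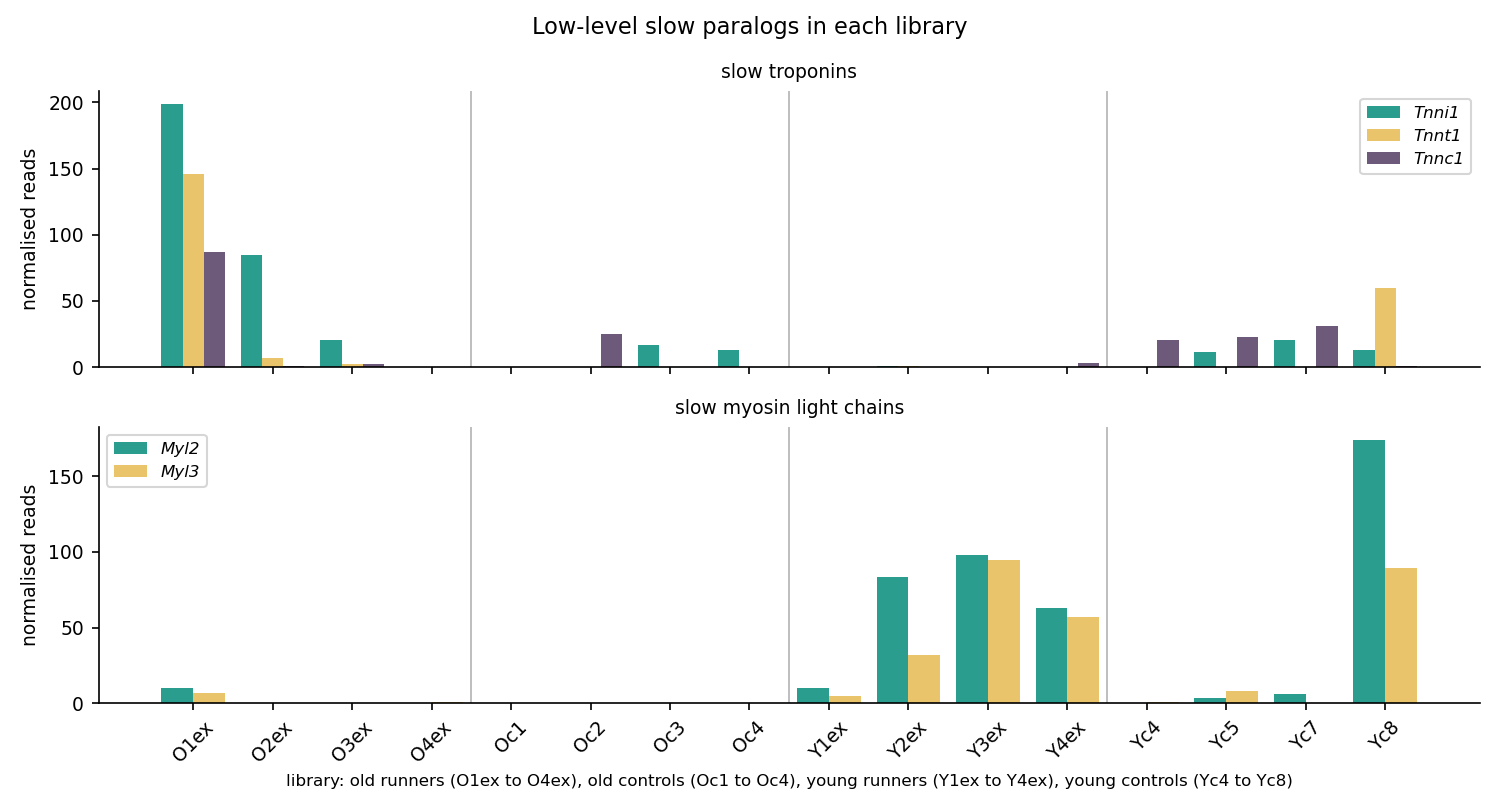
Normalised reads of 3 slow troponins (top) and 2 slow light chains (bottom) in each of the 16 libraries, bars from 0. The troponins peak in O1ex (199, 146 and 87.1), the light chains in Yc8 and in 3 young runners.

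Genes that act with the members were counted from lists of further sarcomere and costamere genes and of sarcomere assembly genes. Of the other sarcomere and costamere genes, 0 of 37 were called in old runners against old controls (0.128% of all genes tested), 1 of 39 in young runners against young controls (0.762%), 0 of 38 in old against young controls (0.112%) and 0 of 39 in old against young runners (0.0213%). That gene was Pdlim1, an adaptor that binds alpha-actinin, which rose to 765 ± 129 normalised reads in young runners, against 247 ± 74.8 in young controls (1.17 ± 0.20, limma adjusted p = 0.0384). The difference was 1.06 to 1.27 without single libraries, but it missed the threshold in 7 of these 8 fits, all except that without Yc4, and with voom (adjusted p = 0.0559). Its adjusted p ranged from 0.00205 to 0.135 over 16 alternatives. Next in old runners were Sspn, sarcospan of the dystrophin complex (0.53 ± 0.12, adjusted p = 0.105), Synm, the intermediate filament protein synemin, and Synpo2l, a Z-disc protein. Synm averaged 15279.9 ± 3555 in old runners and 7844 ± 3818 in old controls (limma adjusted p = 0.136). None of the 12 assembly genes was called in any comparison. Of these 12, 11 had a positive difference in young runners against young controls (median 0.42), where 51.5% of all genes tested were positive (median 0.01). They were led by Bag3, a cochaperone of filamin turnover, and Klhl41, a stabiliser of nebulin. Bag3 averaged 27240.2 ± 3096 in young runners and 17021 ± 2629 in young controls (0.67 ± 0.16, adjusted p = 0.0711). Klhl41 averaged 42019 ± 4578 in young runners and 26247 ± 5516 in young controls (0.69 ± 0.17, adjusted p = 0.084). Each of these 2 genes passed in 2 of 16 alternatives, with library weights and without Yc4. Those settings called 1394 of 10624 and 181 of 10475 genes tested. In old runners against old controls 6 of the 12 were positive (median 0.03), in old against young controls 11 (median 0.22) and in old against young runners 0 (median -0.24). Of all genes tested, 54.8%, 49.3% and 51.3% were positive there, in the same order. These comparisons share libraries.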

How the data were processed

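Per the labels' protocols, column-purified RNA (10 ng) was reverse transcribed with SMART-Seq v4 and libraries were made with the Ovation Ultralow v2 kit, neither of which marks strand. Per the submitters' processing notes, Trim Galore, STAR, featureCounts of Subread and DESeq2 were used on mm10 (roles, versions and annotation are not given in the sources used here). From their form, the deposited values are log2 values after a variance-stabilising transformation that the authors ran on 4 tables of 2 groups each, so levels in separate tables are not on 1 scale. Genes with 0 reads lie at the lowest value of a table, 6.73 to 7.69.

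Inverting the transformation (Python 3.11.15) gave whole reads within 0.02 for 100% of values, and each library's reads were identical in its 2 tables. Runner columns were matched to samples by title, except O4ex and Y4ex, which like all control columns were matched to a group. Size factors over 10171 genes put all 16 libraries on 1 scale. Exon lengths and positions came from GENCODE M21 (22205 of 23220 symbols, 95.6%) and promoter sequences from RefSeq. No molecular identifiers are named in the labels, so limits from 0 reads cover counting error only.

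Each comparison was fitted over its whole table with limma 3.58.1 in R 4.3.3 (variance trend, 2-sided), keeping genes that exceeded the lowest value by 1 or more in 4 or more libraries, with Benjamini-Hochberg adjustment over all genes tested. The dependence of the running difference on age was fitted over both running tables. Each of them holds 1 age, so the age term also took up a shift in level between them. Their lowest values differ (7.69 for old and 6.73 for young), so genes with few reads are compressed differently, which this term does not correct. Ratios of 11 paralog pairs were compared by 2-sided exact permutation tests adjusted over 44 tests. The code was tested on simulated data. All 34 members are covered, and from each further gene list at most 4 genes with the smallest p per comparison are named. The members, pairs and lists were chosen with earlier results of these data known. Alternatives were other filters, normalisations and variance models, voom on recovered reads, removal of an exon length trend, a replicate block and removal of each library. The result of 1 further marker list is not reported here.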

Additional observations from a re-analysis of the deposited data

Results flagged for a closer look

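In 122 sets of 4 libraries (1 gene in 1 group), 8 had 1 library far from the other 3 by Dixon's criterion (6.56%; chance gives about 1 in 20), in normalised reads. Myom3 was at 1.03 in control library Yc4, against 232 to 444 in the other young controls, and at 547 in Oc4, against 323 to 351 in the other old controls. Myoz2 was at 40 in Yc4, against 669 to 916 in the other young controls, and at 234 in Y1ex, against 964 to 1132 in the other young runners. Tnni1 was at 0 in Yc4, against 11.5 to 20.3, and Tnnc1 at 0.803 in Yc8, against 20.5 to 30.8 in the other young controls. In young runner Y3ex, Tnni2 was at 454796, against 247073 to 271965, and Tpm1 at 761062, against 405949 to 445669 in the other young runners. Of the 8, Yc4 gave 3 and Y3ex gave 2.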

How the results depend on the processing

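The count of members called, 0 in each of the 4 comparisons, was 0 under other filters, median centring, quantile normalisation, a variance model without trend, voom and removal of the length trend. With library weights it was 4 in old runners against old controls, 4 in young runners against young controls, 1 in old against young controls and 0 in old against young runners. Without single libraries it ranged from 0 to 3 in old runners against old controls (3 without Oc1), from 0 to 1 in young runners against young controls (1, Actc1, without Yc4) and was 0 in the other 2. Counts over all genes moved more: 12, 81, 11 and 2 genes were called in the order of the report, 688, 1394, 461 and 7 with library weights, 24, 228, 28 and 2 with quantile normalisation, 23, 143, 16 and 2 with median centring, 4, 47, 8 and 2 without the variance trend, 27, 73, 12 and 2 with the stricter filter, 7, 24, 3 and 2 without a filter, 2, 67, 16 and 2 with the length trend removed, and 3, 13, 3 and 2 with voom. The 12 genes in old runners were 7 higher and 5 lower, and the split was 9 and 15 with quantile normalisation and 11 and 12 with median centring. Without Oc1, 295 genes were called in old runners against old controls. In young runners against young controls 181 were called without Yc4 and 0 without Y2ex. The cause of these shifts was not tested.

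Of 792 recomputed values of single differences and ratios, 33 took the other sign, all of differences that had not passed, and 20 passed where the reported value had not. Pdlim1, the called gene of the further lists, missed the threshold in 9 of 16 alternatives. In old runners against old controls, Myl1 (0.01) was -0.02 with median centring, -0.2 with quantile normalisation, -0.16 with library weights and -0.23 to 0.15 without single libraries. Mylk2 (0.01) was -0.02 with median centring, -0.01 with quantile normalisation and -0.04 to 0.06 without single libraries. Mylpf (-0.02) was 0.11 and Tpm2 (-0.02) 0.01 with the length trend removed, and without single libraries they ranged from -0.28 to 0.1 and from -0.17 to 0.11. Tnnt3 was 0.02 with the length trend removed, and Acta1 -0.13 with quantile normalisation. In young runners against young controls, Actn3 was -0.05 with quantile normalisation, -0.02 with library weights and -0.09 (without Y3ex) to 0.3 without single libraries. In old against young controls, Myom1 (0.11) was -0.26 with library weights, -0.14 without Oc1 and -0.15 (without Yc4) to 0.31 without single libraries, and Ttn was 0.18 with the length trend removed. In old against young runners, Myom3 (0.08) was -0.14 with library weights, -0.06 without O1ex and -0.26 (without Y3ex) to 0.3 without single libraries. Over all 146 member differences, 54 took the other sign in at least 1 alternative. No ratio test passed under a pseudocount of 5, on the deposited scale or without any 1 library, where a pass was likewise nearly out of reach.

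Old and young runners share replicate numbers in their titles. Same-numbered libraries did not deviate together (correlations -0.24, 0.092, -0.398 and -0.044), and with a replicate block 0 members and 0 genes in all were called. No block was run for the comparisons that include controls. Control columns could be assigned to a group only, so their replicate numbers are not known. Depth limits the 5 slow forms, which had 0 reads in 7 to 11 libraries.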
